A study of Homo sapiens with 6 samples.

Results

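STAT2, STAT3, STAT5A, STAT6, SOCS1, SOCS2, SOCS3, CISH and JAK2 are 9 genes of cytokine signalling, taken by symbol from the 17513 genes measured, and all 9 were found. The data are RNA sequencing of 6 libraries of polyadenylated RNA. According to the series design the RNA came from macrophages. These had been made from the monocytic leukemia line THP1 and held for 48 h in medium conditioned by KYSE150, an esophageal carcinoma line. In 3 libraries the KYSE150 cells had carried shSPP1#2, a hairpin against the osteopontin gene SPP1, and in the other 3 they had carried shNC. The arms are called shSPP1#2 medium and shNC medium here. A single hairpin stands for the loss of SPP1, and 1 cell line each served as source of medium and as recipient.

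The sample labels name KYSE150 as the cell itself, so the identity was checked on defining markers. All 13 monocyte and macrophage markers reached 1 FPKM (a level scaled to transcript length and library depth) in every library, with a list median of 181 to 191 FPKM. Of 12 squamous epithelial markers only 1 reached 1 FPKM in any library, and KRT5, KRT14 and EPCAM lay at or below 0.04 FPKM. SPP1 measured 2061, 2014 and 1932 FPKM in shSPP1#2 medium, against 2075, 2011 and 1890.4 FPKM in shNC medium. That is the transcript of the receiving cells, so it does not check the knockdown. The macrophage list summed to 2685 to 2767 FPKM in shSPP1#2 medium and 2753 to 2953 FPKM in shNC medium, and the squamous list to 11.7 to 12.96 FPKM in shSPP1#2 medium and 11.9 to 12.05 FPKM in shNC medium. For 6 fibroblast markers the sums were 20.85 to 22.95 FPKM in shSPP1#2 medium and 20.92 to 23.92 FPKM in shNC medium. Summed FPKM of 4 T and NK cell markers ran from 219 to 245 in shSPP1#2 medium and from 238 to 280 in shNC medium, nearly all of it GNLY, and 5 B cell markers stayed below 1 FPKM each. Total estimated counts lay between 18113591 and 20626346. On the first principal component, with 34.0% of the variance, shNC replicate 2 stood at 10.1 and shSPP1#2 replicate 2 at 6.62, against -7.58 to -0.021 for the other libraries. Nothing in the labels says that replicates were separate cultures, so the spread below may be technical.

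STAT proteins are latent transcription factors. When a cytokine binds its receptor, Janus kinases such as JAK2 phosphorylate the receptor and the STATs, which pair up and enter the nucleus. STAT6 carries signals of IL-4 and IL-13, STAT3 those of IL-6 and IL-10, STAT5A those of GM-CSF and IL-3, and STAT2 those of type I interferon together with IRF9. The SOCS proteins and CISH are made in response and shut the same receptors down. Their transcripts are therefore widely read as signs of recent signalling. In macrophages STAT6 is best known for alternative, M2-type activation.

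The promoter windows of CISH and SOCS1 are shown because their DNA holds letters that match elements of STAT binding or interferon response. Windows of 250 bases before to 50 bases after a start came from RefSeq (GRCh38.p14), and 8 of the 9 genes had at least 1. Capitals mark matches on either strand to TTCNNNGAA, the GAS element that STAT dimers bind, or to GAAANNGAAA, an ISRE-type element of interferon response. Both sequences lie on the minus strand, CISH at chr3:50611725-50612024 and SOCS1 at chr16:11256155-11256454.
CISH: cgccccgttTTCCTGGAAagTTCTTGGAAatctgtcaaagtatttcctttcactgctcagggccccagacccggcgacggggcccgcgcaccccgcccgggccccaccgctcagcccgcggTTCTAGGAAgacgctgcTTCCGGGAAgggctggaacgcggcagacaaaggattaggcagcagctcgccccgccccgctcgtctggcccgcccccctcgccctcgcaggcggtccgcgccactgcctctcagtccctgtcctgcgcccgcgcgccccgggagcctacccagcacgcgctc
SOCS1: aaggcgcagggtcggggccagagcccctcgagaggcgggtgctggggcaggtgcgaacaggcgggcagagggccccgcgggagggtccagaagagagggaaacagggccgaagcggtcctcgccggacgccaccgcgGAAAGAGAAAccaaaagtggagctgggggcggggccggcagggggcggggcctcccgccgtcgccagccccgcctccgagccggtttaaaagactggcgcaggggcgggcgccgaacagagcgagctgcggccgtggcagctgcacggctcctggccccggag
The CISH window held 4 matches to the GAS letters, from -241 to -233, -230 to -222, -129 to -121 and -112 to -104 counted from the start base as 0, and none overlapped another. Of all 35116 RefSeq windows 7.66% held at least 1 GAS match, and 7 windows held 4 or more. That limit of 4 was chosen after the CISH window was seen. The SOCS1 window held 1 ISRE-type match, from -113 to -104, and 3.57% of all windows held one. TTCNNNNGAA, the wider spacing that STAT6 prefers and that reads alike on both strands, was found in 1 of 3 windows of STAT5A, and 6.44% of all windows held it. The windows of STAT2, STAT3, STAT6, SOCS3 and JAK2 held none of these letters. The starts of the SOCS3 windows lay 410 and 848 bases from the gene start in GENCODE v29, and that of the STAT6 window 21850 bases. The bases just before the GENCODE starts of SOCS3 and STAT6 were therefore not searched. A match describes letters only.

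The 9 transcripts spanned a wide range of levels, with SOCS3 above STAT5A and the other feedback genes below all 4 STATs. STAT6 was the most abundant, at 94.7 to 100.9 FPKM over the 6 libraries. STAT3 followed at 41.3 to 44.6 FPKM and STAT2 at 21.6 to 24.5 FPKM. SOCS3, the inhibitor of gp130 receptors, was the one feedback gene in the range of the STATs, at 15.6 to 19.98 FPKM. STAT5A lay at 11.04 to 12.96 FPKM. JAK2 at 4.32 to 4.69 FPKM and CISH at 3.31 to 4.57 FPKM overlapped, so their order is not fixed by these libraries. SOCS1 at 0.78 to 1.47 FPKM and SOCS2 at 0.14 to 0.43 FPKM were lowest. By mean FPKM, STAT6 ranked at the 95.9th percentile of all measured genes, SOCS3 at the 78.2nd, CISH at the 51.3rd, SOCS1 at the 37.6th and SOCS2 at the 26.9th.

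**Figure D1:**
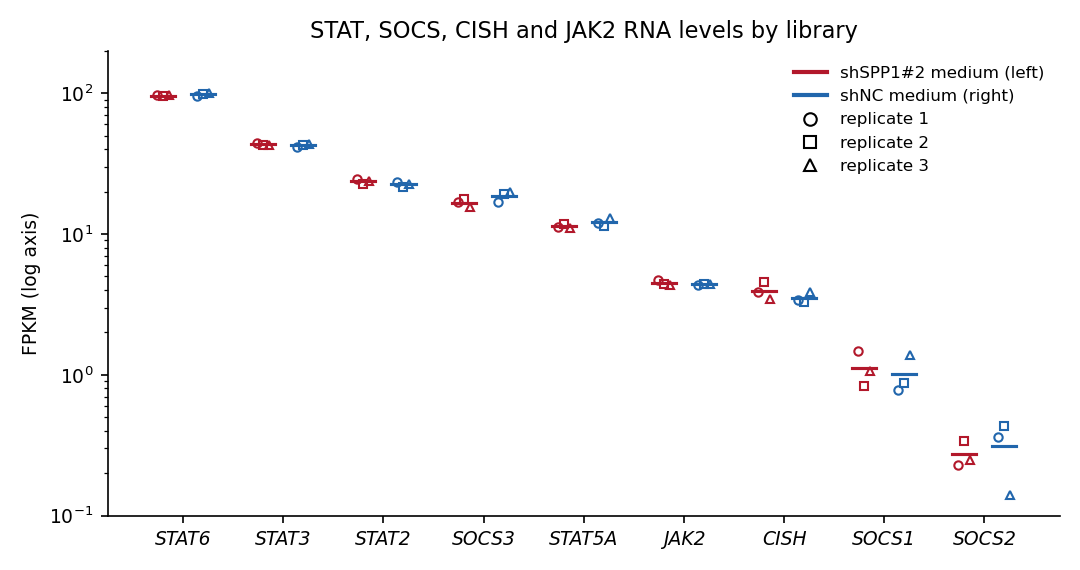
Levels of the 9 genes in FPKM on a log axis, with 1 point per library (shape gives the replicate) and a bar at the mean of 3. Within every gene the shSPP1#2 points (left) and shNC points (right) share a range, and STAT6 stands highest at 94.7 to 100.9 FPKM.

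No difference between shSPP1#2 medium and shNC medium passed the test for any of the 9 genes. With edgeR's quasi-likelihood test, 0 of 9 passed at an adjusted p below 0.05 over 13555 genes tested, where 0% of all genes did, and the smallest adjusted p among the 9 was 0.691. All 9 passed the filter on low counts. The log2 fold changes, shSPP1#2 over shNC, were positive for 6 and negative for 3, with a median of 0.026, against -0.00030 for all genes tested. The groups overlapped in normalised counts for all 9, while over all genes 5.63% lay wholly higher and 5.5% wholly lower in shSPP1#2 medium. At an unadjusted p below 0.05 SOCS3 alone was lower and no member was higher. Over all genes 3.39% were lower and 3.45% higher at that limit, and the member count rests on 1 gene. No other tool or setting called a member, though DESeq2, which called 25 genes in all, gave a member an adjusted p only for STAT3 (0.935) and STAT6 (0.824).

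The 4 STAT factors differed by at most 0.092 on the log2 scale, and their intervals are narrow. In bulk RNA fewer cells of a type and less RNA per cell cannot be told apart. STAT6 (chromosome 12, 57095408 to 57132139, minus strand, GENCODE v29 on GRCh38) measured 96.5, 94.7 and 97.1 FPKM in shSPP1#2 medium, against 95.3, 98.9 and 100.9 FPKM in shNC medium. The first shNC library lay among the shSPP1#2 libraries, and the other 2 lay above them. The log2 fold change was -0.040 (standard error 0.043, 95% interval -0.13 to 0.051, edgeR adjusted p = 0.907), so levels below 0.914-fold or above 1.04-fold lie outside it. With single libraries left out it ran from -0.067 (shNC replicate 1) to -0.023 (shNC replicate 3).

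STAT3 (chromosome 17, 42313324 to 42388568, minus strand) measured 44.6, 42.8 and 42.8 FPKM in shSPP1#2 medium, against 41.3, 43.0 and 43.4 FPKM in shNC medium. The libraries were interleaved. STAT3 had a log2 fold change of 0.024 with a standard error of 0.043 (95% interval -0.066 to 0.11, edgeR adjusted p = 0.956), and with single libraries left out it ran from 0.00087 (shNC replicate 1) to 0.039 (shSPP1#2 replicate 3). STAT2 (chromosome 12, 56341597 to 56360155, minus strand), a factor of the interferon complex ISGF3, measured 24.5, 22.7 and 23.7 FPKM in shSPP1#2 medium, against 23.5, 21.6 and 22.6 FPKM in shNC medium. Here shSPP1#2 replicate 1 was highest and shNC replicate 2 lowest, with the others between. The log2 fold change was 0.073 with a standard error of 0.047 (95% interval -0.027 to 0.17, edgeR adjusted p = 0.836). It was 0.042 without shSPP1#2 replicate 1.

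STAT5A (chromosome 17, 42287547 to 42311943, plus strand) lies 1380 bases from STAT3 and 10839 bases from its close relative STAT5B. It measured 11.29, 11.82 and 11.04 FPKM in shSPP1#2 medium, against 11.93, 11.39 and 12.96 FPKM in shNC medium. In FPKM only shNC replicates 1 and 3 lay above every shSPP1#2 library, and replicate 2 lay among them. In normalised counts only shNC replicate 3 lay above every shSPP1#2 library. The log2 fold change was -0.092 with a standard error of 0.059 (95% interval -0.22 to 0.033, edgeR adjusted p = 0.835), and -0.041 without shNC replicate 3. Of the stretches of 50 bases in STAT5A transcripts, 8.61% also occur in STAT5B, the highest share among the 9 genes, so part of its estimated count can depend on how reads were divided. The sum of both genes was 105.7 ± 4.94 CPM (counts scaled to library size) in shSPP1#2 medium and 108.4 ± 4.67 CPM in shNC medium (SD, n = 3 each), and the groups overlapped.

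Among the feedback genes SOCS3 had the lowest unadjusted p of the 9, with a negative fold change that did not pass over all genes. SOCS3 (chromosome 17, 78356778 to 78360077, minus strand) measured 16.8, 17.7 and 15.6 FPKM in shSPP1#2 medium, against 16.9, 19.3 and 19.98 FPKM in shNC medium. The 2 highest libraries were shNC replicates 2 and 3, and shNC replicate 1 lay among the shSPP1#2 libraries. The means were 16.7 ± 1.04 FPKM in shSPP1#2 medium and 18.7 ± 1.65 FPKM in shNC medium (SD, n = 3 each). The log2 fold change was -0.16 (standard error 0.071, 95% interval -0.31 to -0.015). Its unadjusted p was 0.0331, rank 649 of 13555 genes, and the edgeR adjusted p 0.691. The two-sided exact permutation test over the 6 libraries gave p = 0.3, where 3 against 3 cannot go below 0.1. The size depended on single libraries, at -0.25 without shNC replicate 1, -0.10 without shNC replicate 3 and -0.11 without shSPP1#2 replicate 3.

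CISH, which blocks STAT5 docking at receptors and whose window above carries the GAS letters, had a fold change of the opposite sign to SOCS3 that did not pass either. CISH (chromosome 3, 50606490 to 50611831, minus strand) measured 3.87, 4.57 and 3.44 FPKM in shSPP1#2 medium, against 3.40, 3.31 and 3.90 FPKM in shNC medium. The highest value was that of shSPP1#2 replicate 2, while the other libraries of both groups were interleaved. The difference came to 0.12 on the log2 scale with a standard error of 0.12 (95% interval -0.12 to 0.37, edgeR adjusted p = 0.898). Without shSPP1#2 replicate 2 it was 0.0012. Exons of MAPKAPK3 on the opposite strand cover 4.26% of its exonic bases, and the labels do not say whether counting used strand.

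SOCS1 and SOCS2 were near the limit of what this depth can resolve. SOCS1 (chromosome 16, 11254405 to 11256200, minus strand), an inhibitor that binds JAK kinases directly, had estimated counts of 36, 20 and 26.0 in shSPP1#2 medium, against 19, 19 and 34 in shNC medium. Each group thus held 1 library above 30 counts and at least 1 at 20 or below. The SOCS1 log2 fold change of 0.14 had a standard error of 0.29 (95% interval -0.48 to 0.75, edgeR adjusted p = 0.964) and was negative without shSPP1#2 replicate 1 or without shNC replicate 1. SOCS2 (chromosome 12, 93569814 to 93583487, plus strand), which restrains growth hormone signalling, had 12, 13.6 and 10.9 estimated counts in shSPP1#2 medium, against 17.99, 11 and 5.99 in shNC medium. The shNC libraries held both the highest and the lowest value. Its log2 fold change of 0.028 had a standard error of 0.40 (95% interval -0.82 to 0.88, edgeR adjusted p = 0.998), and its sign turned under some settings. In FPKM its mean was 0.27 in shSPP1#2 medium and 0.31 in shNC medium, the opposite order. Changes up to 1.68-fold for SOCS1 and 1.83-fold for SOCS2 lie inside these intervals. The antisense gene SOCS2-AS1 shares 4.09% of the exonic bases of SOCS2.

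**Figure D2:**
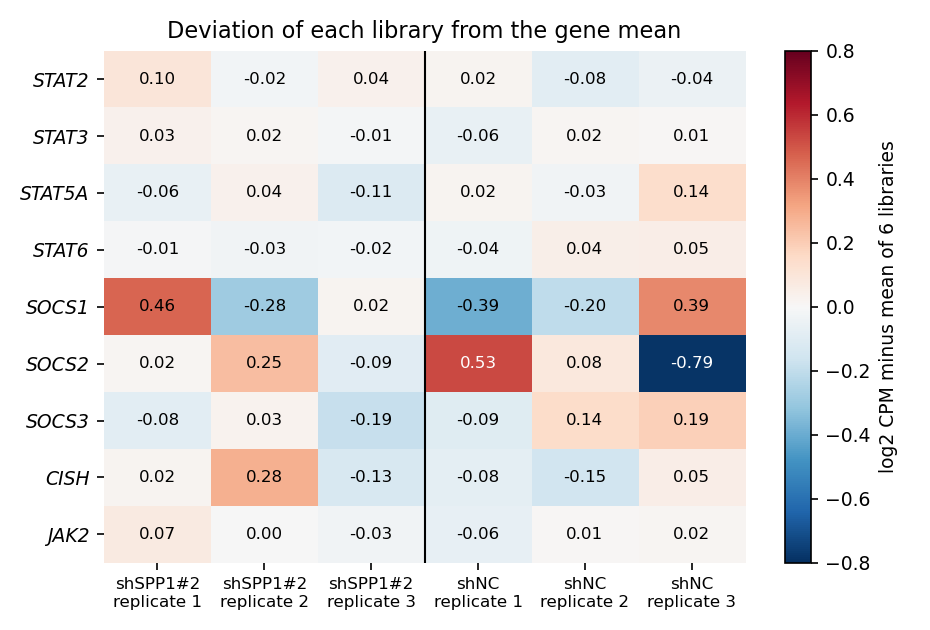
Each cell gives log2 CPM of 1 library minus the mean of the gene over 6 libraries, with shSPP1#2 libraries left of the line and shNC libraries right of it. SOCS1 and SOCS2 carry the widest deviations (0.53 to -0.79 for SOCS2), STAT3 and STAT6 stay within 0.06 of 0, and no row is split cleanly by group.

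The spread between replicates was widest in SOCS1 and SOCS2, which had the fewest counts. Pooled over both groups, the coefficient of variation of CPM was 2.29% for STAT3, 2.43% for STAT6 and 3.35% for JAK2. It was 9.23% for SOCS3 and 12.03% for CISH, and 30.0% for SOCS1 and 36.0% for SOCS2. Counting alone would give 1.59% for STAT3, 3.32% for SOCS3, 7.95% for CISH, 19.7% for SOCS1 and 28.97% for SOCS2. SOCS3 therefore varied between replicates 2.78 times as much as its counts alone give, the highest ratio of the 9.

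JAK2 (chromosome 9, 4984390 to 5128183, plus strand), the kinase of GM-CSF, IL-3 and interferon gamma receptors, measured 4.69, 4.43 and 4.32 FPKM in shSPP1#2 medium, against 4.33, 4.41 and 4.43 FPKM in shNC medium. Apart from shSPP1#2 replicate 1 all libraries lay between 4.32 and 4.43 FPKM. For JAK2 the log2 fold change was 0.026 with a standard error of 0.062 (95% interval -0.10 to 0.16, edgeR adjusted p = 0.966). The related kinases JAK1 and TYK2 were more abundant, at 26.0 to 28.8 and 44.6 to 48.7 FPKM, with log2 fold changes of 0.054 and 0.019. JAK3, the kinase of the common gamma chain, reached no more than 0.27 FPKM.

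Other STAT and SOCS genes, none of which passed over all genes, filled out the family. STAT5B had a log2 fold change of 0.0012 (95% interval -0.11 to 0.11), and STAT4 did not exceed 0.25 FPKM. All 4 other SOCS genes had positive log2 fold changes, from 0.010 for SOCS5 and 0.014 for SOCS7 to 0.10 for SOCS6 and 0.13 for SOCS4. SOCS4, whose groups did not overlap in normalised counts, had an edgeR unadjusted p of 0.0343 (95% interval 0.010 to 0.24, edgeR adjusted p = 0.691). It was the only gene of these 4 at an unadjusted p below 0.05, where 3.45% of all genes were higher and 3.39% lower. In normalised counts 5.63% of all genes lay wholly higher. SOCS3 and SOCS4 had opposite signs. Of 15 further negative regulators, phosphatases, PIAS proteins and adaptors among them, 14 had positive values with a median of 0.035. Of these 15 genes 0 reached an unadjusted p below 0.05, against 3.45% higher and 3.39% lower over all genes. The transcriptional repressor BCL6 had 0.097 and the ubiquitin ligases CBL and CBLB had 0.082 and 0.065.

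**Figure D3:**
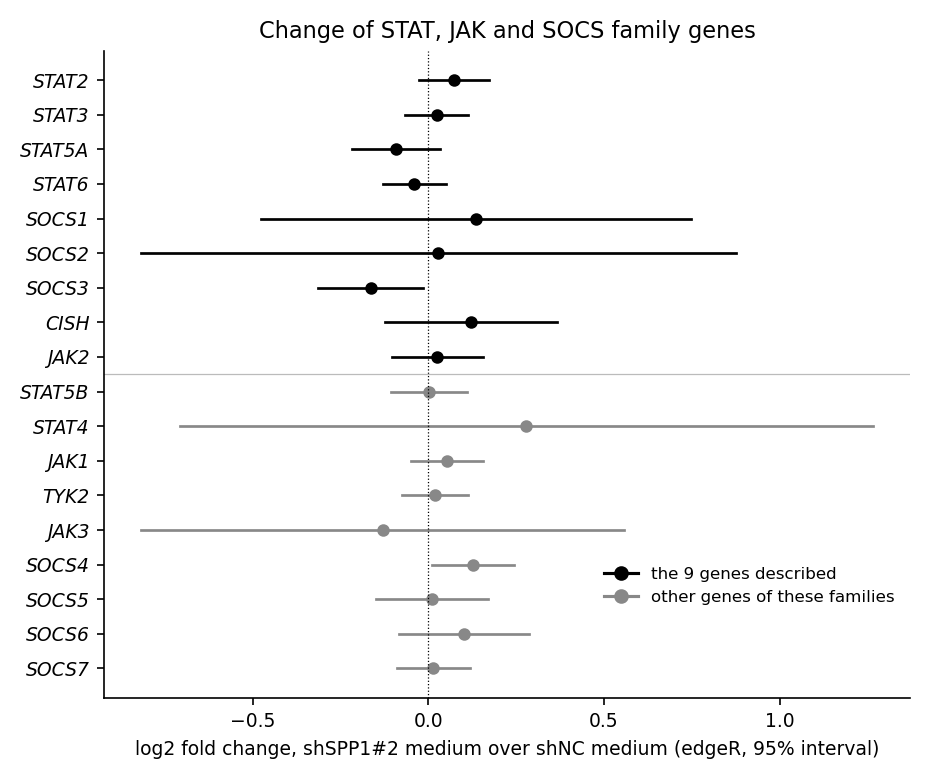
Log2 fold changes (shSPP1#2 over shNC, edgeR) with 95% intervals, for the 9 genes in black and for other family genes in grey. Only the intervals of SOCS3 (-0.31 to -0.015) and SOCS4 (0.010 to 0.24) leave out 0 before adjustment, and intervals are widest where counts are low.

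No receptor chain passed over all genes. All 26 listed chains were tested, 14 with positive and 12 with negative log2 fold changes, and the median was 0.0075. Their levels ran from the LIF receptor LIFR at 0.05 to 0.09 FPKM, the growth hormone receptor GHR at 0.28 to 0.48 FPKM and the TSLP receptor CRLF2 at 0.62 to 1.08 FPKM to the interferon gamma receptor chain IFNGR2 at 82.4 to 88.8 FPKM, 4 chains named after their values were seen. IL4R, the IL-4 receptor chain that recruits STAT6, measured 46.6, 46.9 and 47.2 FPKM in shSPP1#2 medium, against 45.2, 52.2 and 48.3 FPKM in shNC medium. In FPKM the shNC libraries spanned the whole range. In normalised counts shSPP1#2 replicate 1 was lowest, at 145.6 CPM, against 152.9 CPM in the lowest shNC library, and the groups overlapped. Its log2 fold change was -0.090 (95% interval -0.19 to 0.014, edgeR adjusted p = 0.782). CSF2RB, the shared chain of GM-CSF and IL-3 receptors, had 0.12 (0.0019 to 0.24, edgeR adjusted p = 0.724). It was the one chain of 26 at an unadjusted p below 0.05, where 3.45% of all genes were higher and 3.39% lower. The IL-10 receptor chain IL10RA had 0.099 and the IL-27 receptor IL27RA -0.11.

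Of 26 ligands listed, 20 were in the table and 12 passed the filter, 9 of them with negative values, and the median was -0.091. As ligands chosen after their values were seen, IL6 reached at most 0.41 FPKM, IL13 0.12 FPKM and IFNB1 0.14 FPKM, and the values of IL10 ran from 0.30 to 0.70 FPKM. IL23A was the most abundant of them, at 83.5 to 112.4 FPKM, and had a log2 fold change of -0.11 (-0.27 to 0.051). LIF, an activator of STAT3 through gp130, had -0.075, CLCF1 -0.062 and IL15 -0.20. IL11, named after its value was seen, had -0.76 (-1.43 to -0.083, edgeR adjusted p = 0.673), with at most 0.66 FPKM in any library. It was the one ligand of 12 tested at an unadjusted p below 0.05, where 3.39% of all genes were lower and 3.45% higher.

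Listed target genes were also examined, though the activity of the STAT proteins was not measured, and 0 passed over all genes in any list. Of 27 STAT6 targets 16 were tested, 8 positive and 8 negative, with a median of -0.0099. The M2 genes MRC1, ALOX15 and CCL18, also chosen after their values were seen, lay at or below 0.12 FPKM in every library. Other listed genes named on the same footing were abundant, among them the transglutaminase TGM2 at 339 to 380 FPKM (log2 fold change -0.054, -0.16 to 0.053), the lipid carrier FABP4 at 102 to 143 FPKM (-0.063, -0.26 to 0.13), the transcription factor EGR2 at 124 to 130.5 FPKM (0.035, -0.054 to 0.12) and the nuclear receptor PPARG at 11.43 to 14.35 FPKM (0.12, -0.042 to 0.28). CD209, a lectin receptor induced by IL-4, measured 16.7, 17.0 and 17.3 FPKM in shSPP1#2 medium, against 15.6, 14.4 and 15.3 FPKM in shNC medium, and the groups did not overlap. Its log2 fold change was 0.17 (0.074 to 0.27, edgeR adjusted p = 0.483), while the chemokine CCL22 had -0.21 (-0.39 to -0.034, edgeR adjusted p = 0.633). The arginine transporter SLC7A2 had 0.16 (-0.029 to 0.35). At an unadjusted p below 0.05, 2 of the 16 were higher (CD209 and BATF3, the second named after its value was seen) and 1 lower, against 3.45% and 3.39% of all genes. In normalised counts 3 of the 16 lay wholly higher and 0 wholly lower, against 5.63% and 5.5% of all genes.

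All 28 STAT3 targets were tested, 12 positive and 16 negative, with a median of -0.020. At an unadjusted p below 0.05, 3 were lower (SOCS3, TIMP1 and HMOX1) and 0 higher, against 3.39% and 3.45% of all genes. In normalised counts 3 lay wholly lower and 1 wholly higher in shSPP1#2 medium, against 5.5% and 5.63% of all genes. TIMP1, an inhibitor of metalloproteinases, had -0.17 (-0.29 to -0.060, edgeR adjusted p = 0.509), the heme oxygenase HMOX1 -0.13 (-0.25 to -0.0029) and the IL-1 receptor antagonist IL1RN -0.098 (-0.20 to 0.0017). TIMP1 measured 5542, 5561 and 5375 FPKM in shSPP1#2 medium, against 6047, 6653 and 5833 FPKM in shNC medium, so all shNC libraries lay above all shSPP1#2 libraries. HMOX1 measured 49.4, 54.8 and 51.8 FPKM in shSPP1#2 medium, against 54.15, 62.0 and 53.9 FPKM in shNC medium, and the groups overlapped. Both were highest in shNC replicate 2, the library at the end of the first principal component. The part of that library in the values of HMOX1 and TIMP1 was not tested. Among targets picked after their values were seen, the kinase gene PIM1 had 0.0074 (-0.093 to 0.11) and the survival gene MCL1 0.019 (-0.077 to 0.11).

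Of 22 STAT5 targets 19 were tested, 9 positive and 10 negative, with a median of -0.0083. The cyclin gene CCND2 had 0.43 (0.092 to 0.76, edgeR adjusted p = 0.629) at no more than 0.98 FPKM, and the differentiation inhibitor ID2 had -0.13 (-0.23 to -0.025, edgeR adjusted p = 0.633). SPRED1, an inhibitor of RAS signalling, had 0.11 and the repressor KLF10 0.082. At an unadjusted p below 0.05, 1 STAT5 target was higher (CCND2) and 1 lower (ID2), against 3.45% and 3.39% of all genes.

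Targets of ISGF3, the interferon complex that holds STAT2 and IRF9, had mostly positive values. Of 30 tested, 23 had positive values and 7 negative, with a median of 0.084. At an unadjusted p below 0.05, 6 were higher and 0 lower, against 3.45% and 3.39% of all genes. In normalised counts 9 lay wholly higher and 2 wholly lower, against 5.63% and 5.5% of all genes. OAS2, an activator of RNase L, measured 3.01, 2.48 and 2.5 FPKM in shSPP1#2 medium, against 2.01, 1.86 and 2.24 FPKM in shNC medium. All shSPP1#2 libraries were higher. Its log2 fold change was 0.41 (0.19 to 0.64, edgeR adjusted p = 0.442), and XAF1, EPSTI1 and OAS1 had 0.32, 0.27 and 0.24. With single libraries left out, 3 to 5 targets were higher at that limit, with 3 each without shSPP1#2 replicate 1, shNC replicate 1 or shNC replicate 3. Leaving out shNC replicate 2 gave a median of 0.047, and leaving out shNC replicate 3 gave 0.15. The list holds STAT2 itself. The target lists were drawn up with earlier results of these libraries known.

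**Figure D4:**
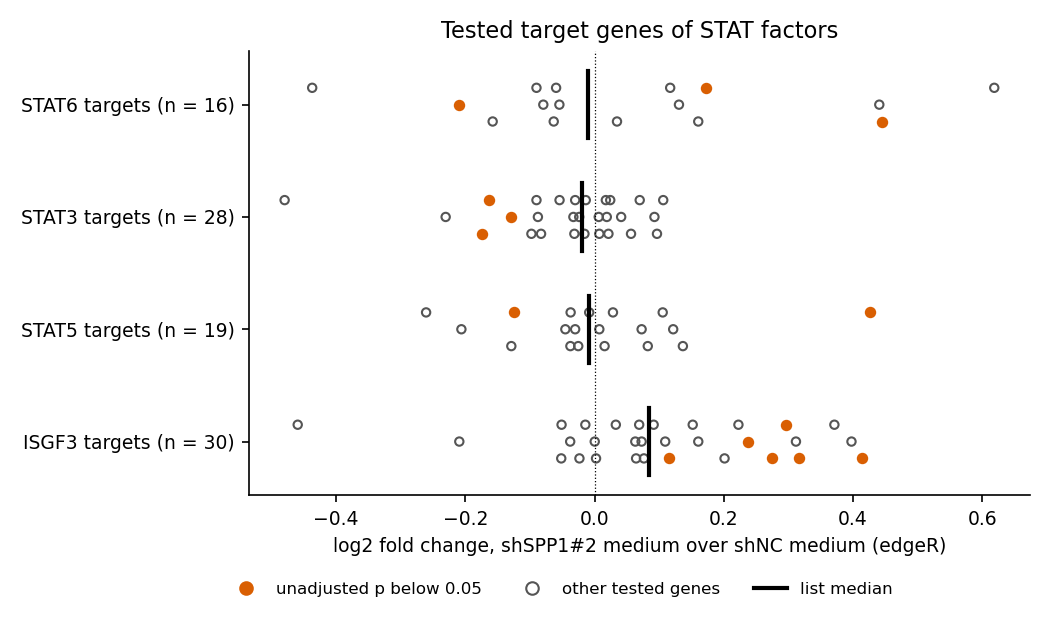
Log2 fold changes (shSPP1#2 over shNC, edgeR) of the tested targets of each STAT complex, 1 point per gene, filled where the unadjusted p is below 0.05, with the list median as a bar. The ISGF3 median lies at 0.084, and those of the other lists lie between -0.020 and -0.0083.

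FPKM ratios between members are given as a description, for 5 pairs chosen after the values were seen. FPKM of SOCS3 per FPKM of STAT3 was 0.38 ± 0.025 in shSPP1#2 medium and 0.44 ± 0.028 in shNC medium (SD, n = 3 each), and the groups overlapped. CISH per STAT5A was 0.343, 0.387 and 0.312 in shSPP1#2 medium, against 0.285, 0.291 and 0.301 in shNC medium. These did not overlap, and neither gene alone separated the groups. The ratio of STAT6 to STAT3 was 2.17, 2.21 and 2.27 in shSPP1#2 medium, against 2.30, 2.30 and 2.32 in shNC medium, which did not overlap either. Among single genes 5.63% lay wholly higher and 5.5% wholly lower in normalised counts. The share over other gene pairs was not computed, so a ratio without overlap is not read as a difference. The groups overlapped for SOCS1 per JAK2, at 0.25 ± 0.063 in shSPP1#2 medium and 0.23 ± 0.072 in shNC medium, and for STAT2 per STAT3, at 0.54 ± 0.013 in shSPP1#2 medium and 0.53 ± 0.034 in shNC medium (SD, n = 3 each).

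Genes whose pattern over the 6 libraries lay nearest to each feedback gene were found by the root mean square difference of centred log2 CPM among genes averaging at least 2 in log2 CPM (10615 for SOCS3 and CISH). Nearest to SOCS3 were IDH3B, OPN3 and TIMM17B, at differences of 0.034, 0.043 and 0.047, where the SOCS3 pattern itself had a root mean square of 0.14. Nearest to CISH were FAM220A, ACOT8 and NCAPH, at 0.038, 0.044 and 0.050. Those nearest to SOCS1 (KIAA0754 and KIF20B) and SOCS2 (ZNF765, EIF4E3 and RGPD8) lay at 0.095 to 0.16 and 0.20 to 0.23. The median difference from SOCS3 over these genes was 0.15.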

How the data were processed

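Polyadenylated RNA of 6 libraries, 3 per group by the hairpin in the sample titles, was sequenced on DNBSEQ, per the labels' protocols. The authors deposited estimated counts per gene, not scaled, and FPKM values per gene. Per the submitters' processing notes, which assign no roles, HISAT2 2.0.4, Bowtie2 2.2.5, RSEM and GRCh38.p13 were used. Neither strand use nor the annotation is stated there. From 78.9% to 80.4% of counts per library were not whole (tolerance 0.005), and 20 stray text lines were dropped from the FPKM table.

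Counts were rounded, filtered with filterByExpr (13555 of 17513 genes kept), normalised by TMM and put through the quasi-likelihood test of edgeR 4.0.16 (R 4.3.3), shSPP1#2 minus shNC, without block. P-values were adjusted by Benjamini-Hochberg over every gene tested (threshold 0.05). Log2 CPM used a prior count of 2. The biological coefficient of variation was 4.54%. Intervals are 95% and come from the fit. Replicates differed by 3.20 to 4.33 chi-square units per degree of freedom, more than counting gives, so none was merged. Alternatives were RLE and total-count scaling, other filters on low counts, DESeq2 1.42.0, limma-voom (limma 3.58.1), limma on log2(FPKM + 1) and log2(FPKM + 0.1), a replicate block, an adjusted p below 0.1 and each library left out. Coordinates and transcript sequences came from GENCODE v29 (GRCh38), matched by Entrez number.

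The members and gene lists were chosen with earlier results of these data known. Named genes were the 9 members, up to 4 genes of smallest p per list among those averaging at least 2 in log2 CPM (all genes in lists of up to 4), and 3 nearest patterns per feedback gene. Some results that this rule covers are not reported here. Plots used matplotlib 3.10.9.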

Additional observations from a re-analysis of the deposited data

How the results depend on the processing

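Members called stayed at 0 under each alternative run, for those members given an adjusted p. The count over all genes was 0 with edgeR and also 0 with RLE or total-count scaling, a CPM of at least 1 in 3 libraries, or limma on log2(FPKM + 1). It was 18 without a low-count filter, 25 with DESeq2, 1 with limma-voom, 1 with limma on log2(FPKM + 0.1) and 2 at an adjusted p below 0.1. With single libraries left out it ran between 1 (shSPP1#2 replicate 1 left out) and 10 (shSPP1#2 replicate 2 left out); the cause was not tested. With a replicate block 59 genes were called and again 0 members, SOCS3 having -0.16 (edgeR adjusted p = 0.328). Deviations of same-numbered libraries correlated at 0.19, 0.29 and 0.089 for numbers 1, 2 and 3 across genes, which are not independent. Between unlike numbers, shSPP1#2 replicate 3 and shNC replicate 1 correlated at 0.12, and the rest ran from -0.26 to -0.013. Deviations were taken from the mean of each group, so positive values for some pairs of libraries force negative values for others. The numbers were not taken as pairs in the main fit, and whether they mark pairs was not tested.

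The sign of SOCS2 turned with limma on log2(FPKM + 1), at -0.035, and on log2(FPKM + 0.1), at -0.068. With single libraries left out SOCS2 ran from -0.31 to 0.44, SOCS1 from -0.10 to 0.43 and JAK2 from -0.0034 to 0.050. SOCS3 ran from -0.25 to -0.10, with -0.14 without shNC replicate 2, and DESeq2 gave no adjusted p for it or for 6 other members. SOCS2 failed the filter of CPM of at least 1 in 3 libraries and was not tested there. The median of the 9 genes ran from -0.0034 to 0.050. Leaving out single libraries was chosen after seeing the data for ISGF3 targets, whose count higher at an unadjusted p below 0.05 ran from 3 to 5 and whose median ran from 0.047 to 0.15. Depth limits SOCS1 and SOCS2, with at most 36 and 17.99 estimated counts in a library.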
